A study of Mus musculus with 12 samples.

Results

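The genes described here are 6 core pluripotency factors, *Pou5f1* (which encodes OCT4), *Sox2*, *Nanog*, *Sall4*, *Utf1* and *Lin28a*. The rule names them by symbol and uses no measured value, though earlier results of these data were known when they were chosen. All 6 were found among the 24881 gene symbols of the deposited table and among the 12572 genes tested. RNA was sequenced from R1 mouse embryonic stem cells (ESCs) that carry the FUCCI reporters, fluorescent proteins whose colours change along the cell cycle, and every library was made from cells sorted in G1 phase. There were 4 groups of 2 libraries: wild-type (WT) cells in serum, P53 KO (P53-/-) cells in serum, WT cells in 2i and P53-/- cells in 2i. In 2i medium, inhibitors of the kinases MEK and GSK3 hold ESCs in a naive ground state, while in serum the cells are more heterogeneous. The P53-/- cells came from single cells edited by CRISPR/Cas9 in an exon common to the *Trp53* isoforms, so each line is 1 clone. Clones 1 and 2 were sequenced, and no column names its clone, so the P53-/- libraries of a group may differ by clone. Nothing in the labels says whether the libraries of a group came from separate cultures, so the tests measure only the spread between these libraries, which may be technical or, in P53-/- cells, between clones. P21 KO cells and the WT 2i libraries paired with them were not analysed here.

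OCT4 and SOX2 are transcription factors that bind many enhancers of ESCs side by side, OCT4 through its POU domain and SOX2 through its HMG box. NANOG, a homeodomain factor, shares many of these sites and stabilises self-renewal, and it is known for uneven levels between single cells in serum. SALL4 is a zinc finger factor that interacts with both, UTF1 is a chromatin-associated protein whose gene is a classical OCT4 and SOX2 target, and LIN28A is an RNA-binding protein that blocks the maturation of let-7 microRNAs. The comparisons ask how the transcripts of these factors differed between culture conditions and whether they differed when P53 was lost.

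The values are FPKM (fragments per kilobase of transcript and per mapped fragments of the library, as the authors computed them), so that levels of different genes can be set side by side. Depth, estimated from the steps between low values, was 5070000 to 13030000 fragments per library, up to a factor common to all of them. *Trp53* had 26.8 and 33.7 FPKM in WT 2i against 7.25 and 1.88 in P53-/- 2i, while the WT serum libraries stood at 77.6 and 75.1 and the P53-/- serum libraries at 16.8 and 3.68. Its log2 difference between P53-/- and WT was called in 2i (−2.98, limma adjusted p = 0.05471) and, though as large, not in serum (−3.26, limma adjusted p = 0.15). The other ESC markers checked, *Zfp42*, *Dppa5a*, *Tdgf1*, *Dppa4* and *Fgf4*, were expressed in every library. Sums of markers of other cells moved with the culture. The summed FPKM of 8 trophoblast markers was 55.3 to 122 in 2i and 6.59 to 13.7 in serum, most of it from the keratin genes *Krt8* and *Krt18*. *Eomes* of this list went the other way, with log2 differences of −0.52 in WT (limma adjusted p = 0.1737) and −0.77 in P53-/- (limma adjusted p = 0.05695, called). The sum of 7 mesoderm markers was 8.14 to 13.4 in 2i and 1.12 to 1.76 in serum, in 2i mostly from *Gsc*, at 6.225 to 9.83 FPKM. Limma called 3 of 3 tested mesoderm markers higher in 2i in WT and 2 of 3 in P53-/-, against 27.2% and 28% of all genes. *Kdr* overlapped between the cultures in P53-/-, and *Mesp1* was lower in WT 2i than in WT serum (means 0.0642 and 0.384 FPKM). The sum of 7 fibroblast markers was 0.761 to 1.34 in 2i and 7.73 to 10.5 in serum, in serum nearly all from *Thy1*, with *Col3a1* and *Postn* listed at 0 in every library. The sum of 8 primitive endoderm markers, mostly from *Sparc*, was 87.5 to 110 FPKM in WT 2i against 67.95 to 68.9 in WT serum, and 58.1 to 73.3 in P53-/- 2i against 69.1 to 75.99 in P53-/- serum. The sum of 6 neural markers was higher in 2i in WT, at 31.5 to 34.2 against 26.5 to 27.5 in serum, and lower in 2i in P53-/-, at 22.5 to 27.7 against 36.0 to 41.1, and most of it came from *Tubb3*. *Nes* of the same list went the other way in WT, with means of 3.55 FPKM in 2i and 5.995 in serum (log2 −0.74, limma adjusted p = 0.01226). The part of these markers in the culture differences was not tested. Of 12 housekeeping genes, 4 were called higher and 2 lower in WT 2i than in WT serum, where 27.2% and 28.6% of all genes were called, and 6 higher and 1 lower in P53-/- 2i than in P53-/- serum, where 28% and 30.1% were called. Between the genotypes limma called 0 of the 12 in either culture, against 10.3% of all genes in 2i and 1.02% in serum. Of the 12, 4 in 2i and 0 in serum had an unadjusted p under 0.05, as did 3173 and 1422 of the 12572 genes.

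Promoter windows of 300 bases (250 before and 50 after the annotated start) were read from RefSeq, build GRCm38.p6, for 5 members, all but *Sall4*. The windows of the member that was higher in 2i (*Pou5f1*) and of the pair that fell most (*Utf1* and *Lin28a*) are shown, since their levels moved in different ways. That of *Nanog* is shown too, the only gene whose RefSeq windows held the exact composite OCT4 and SOX2 string searched for. They lie at chr17:35505782-35506081 (plus strand, *Pou5f1*), chr6:122707239-122707538 (plus strand, *Nanog*), chr7:139943606-139943905 (plus strand, *Utf1*) and chr4:134018767-134019066 (minus strand, *Lin28a*), and each is written from 5′ to 3′ on the strand of its gene. RefSeq listed 2 windows each for *Pou5f1* and *Nanog*, and the window nearest the GENCODE start was used. Capitals mark the POU core ATGCAAA, the SOX core CATTGT and the GC box GGGCGG, searched on both strands.
Pou5f1: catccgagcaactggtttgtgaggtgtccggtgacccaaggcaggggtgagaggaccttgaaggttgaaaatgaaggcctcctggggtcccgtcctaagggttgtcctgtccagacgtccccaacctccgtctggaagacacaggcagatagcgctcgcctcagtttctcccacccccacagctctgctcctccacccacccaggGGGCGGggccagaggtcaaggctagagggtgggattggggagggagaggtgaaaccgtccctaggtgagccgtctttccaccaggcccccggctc
Nanog: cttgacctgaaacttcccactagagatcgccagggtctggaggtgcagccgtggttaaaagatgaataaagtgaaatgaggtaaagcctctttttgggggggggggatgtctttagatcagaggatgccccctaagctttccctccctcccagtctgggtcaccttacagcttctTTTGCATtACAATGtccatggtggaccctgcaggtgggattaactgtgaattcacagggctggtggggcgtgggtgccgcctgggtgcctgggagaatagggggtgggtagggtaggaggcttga
Utf1: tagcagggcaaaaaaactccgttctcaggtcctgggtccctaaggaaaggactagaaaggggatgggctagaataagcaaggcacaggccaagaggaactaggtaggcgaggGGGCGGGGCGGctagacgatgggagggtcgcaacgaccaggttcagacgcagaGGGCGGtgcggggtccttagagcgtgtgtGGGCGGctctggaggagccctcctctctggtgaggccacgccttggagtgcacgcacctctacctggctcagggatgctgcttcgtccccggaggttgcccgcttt
Lin28a: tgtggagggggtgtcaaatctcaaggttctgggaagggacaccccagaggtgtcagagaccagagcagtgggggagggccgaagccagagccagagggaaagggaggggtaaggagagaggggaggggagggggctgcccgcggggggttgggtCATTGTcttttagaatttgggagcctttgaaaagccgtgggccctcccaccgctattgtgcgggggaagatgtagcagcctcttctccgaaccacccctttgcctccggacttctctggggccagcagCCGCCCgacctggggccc

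In *Nanog*, a POU core and a SOX core stood 1 base apart from position −75, counted from the start with no position 0. This composite, TTTGCATNACAATG, was found in 2 of the 32851 RefSeq windows (0.00609%), both of them windows of *Nanog*. A POU core alone stood in 4.63% of all windows, and *Sox2* had a copy at −99. A SOX core stood in 12.6% of all windows, and *Lin28a* had a copy at −96. The GC box was present in 35.7% of all windows. *Utf1* had 4 GC boxes, at −138, −133, −85 and −56, of which the first pair overlapped, *Sox2* had 2, *Pou5f1* had 1 at −45, *Lin28a* had 1 after the start, at 33, and *Nanog* had 0. The P53 half-site was searched as RRRCWWGYYY, where R is A or G, W is A or T and Y is C or T. It was found in 0 of the 5 windows and in 8.36% of all windows, and 5 windows are too few to set against this share. The paper mapped P53 binding by ChIP-seq, which was not used here. The *Sox2* window held 27 CpG and was 66.3% GC, the *Nanog* window 4 CpG and 54.3% GC, against medians of 7 CpG and 52.7% GC over all windows. These matches are descriptions of the letters in short windows, and distal enhancers were not searched.

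In WT serum, *Pou5f1* was the most abundant of the 6 transcripts, at 527.5 ± 6.15 FPKM (SD, n = 2), followed by *Nanog* at 329.1 ± 8.42, *Sox2* at 211.8 ± 1.52 and *Lin28a* at 97.92 ± 6.04. *Sall4* at 54.73 ± 0.627 and *Utf1* at 52.63 ± 1.22 closed the order (SD, n = 2 for each). No neighbours in this order overlapped in their library values, although *Sall4* and *Utf1* lay close. The order was the same in P53-/- serum, where the lowest *Sall4* library, at 55.66 FPKM, was just above the highest *Utf1* library, at 55.55 FPKM. In WT 2i, *Lin28a* dropped behind *Sall4*, and again no neighbours overlapped. In P53-/- 2i, *Utf1* and *Lin28a* shared the lowest place with overlapping libraries.

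**Figure D1:**
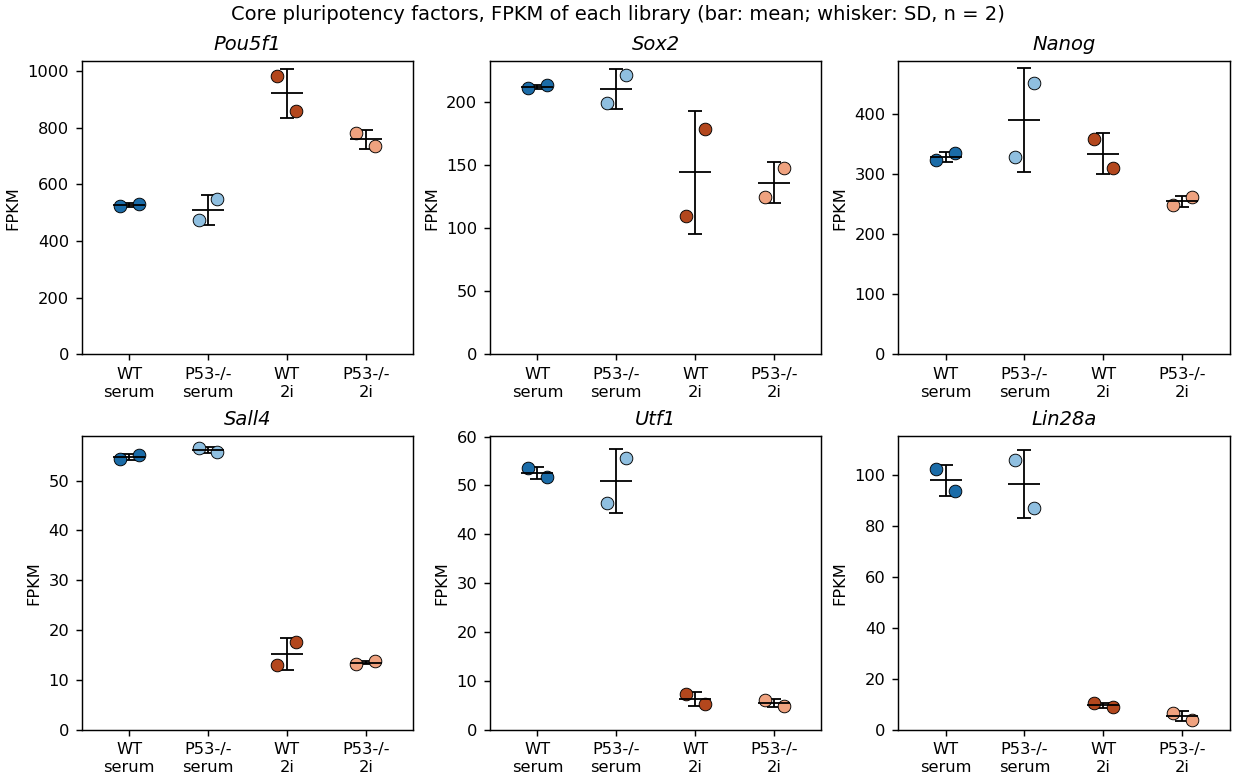
FPKM of the 6 core factors in each library (points), with the group mean (bar) and SD (whisker, n = 2), in WT and P53-/- cells in serum and 2i. *Sall4*, *Utf1* and *Lin28a* lay far lower in all 4 libraries from 2i than in all 4 from serum, *Pou5f1* lay higher in 2i, and *Nanog* in WT overlapped between the cultures.

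Culture moved most of the core factors, and in different directions. In WT cells, *Pou5f1* was higher in 2i than in serum, *Sox2*, *Sall4*, *Utf1* and *Lin28a* were lower, and *Nanog* was at a similar mean level. A gene was called when its limma adjusted p was under 0.1 and it differed by more than 1.5-fold. Of the 6 members, 5 were called in this comparison, 1 higher and 4 lower, where 55.7% of all genes tested were called, 27.2% higher and 28.6% lower. In P53-/- cells 5 of 6 were called, 0 higher and 5 lower, where 58.2% of all genes were called, 28% higher and 30.1% lower. Since most genes tested were called, the number of members called says little about them, and the sizes of the differences are given below for each. In bulk RNA, fewer cells expressing a gene and less RNA per cell cannot be told apart.

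*Pou5f1*, on chromosome 17, had 982 and 860 FPKM in WT 2i against 523 and 532 in WT serum. The P53-/- libraries stood at 782 and 735 in 2i against 473 and 548 in serum. The 2i libraries were all above the serum libraries of the same genotype. The log2 difference between 2i and serum was 0.80 in WT (standard error 0.15, limma adjusted p = 0.002855), a 1.74-fold rise. In P53-/- it was 0.57 (standard error 0.15, limma adjusted p = 0.01237), a fold of 1.489, just under the threshold of 1.5. It passed that threshold with median-ratio scaling (0.63), with quantile normalization (0.66), without P53-/- 2i library 2 (0.62) and without P53-/- serum library 2 (0.68). Centred on genes of similar transcript length, as described below, the difference was 0.27 in WT, where the call was lost (limma adjusted p = 0.1411), and 0.0088 in P53-/- (limma adjusted p = 0.9629). Reads of the *Pou5f1*-related loci could be shared with it. Each of these loci was listed with at most 0.611 FPKM in any library, and sharing of reads was not tested.

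*Sox2*, a gene of a single exon on chromosome 3, had 110 and 178 FPKM in WT 2i against 211 and 213 in WT serum, with 124 and 147 in P53-/- 2i against 199 and 221 in P53-/- serum. All 2i libraries were below all serum libraries, but the WT 2i libraries differed widely between themselves. The log2 difference was −0.60 in WT (standard error 0.22, limma adjusted p = 0.04533) and −0.63 in P53-/- (standard error 0.22, limma adjusted p = 0.03651), 1.51-fold and 1.55-fold lower in 2i. Both calls were near the fold threshold. In WT the call was lost in 6 of 19 alternatives, and the value fell to −0.25 without WT 2i library 1 (limma adjusted p = 0.2239) and was −0.61 and −0.59 without each WT serum library (limma adjusted p = 0.1448 and 0.1557). In P53-/- it was lost in 4 of 19, among them without P53-/- 2i library 1 (−0.51) and without P53-/- serum library 2 (−0.55). *Sox2* lies within the long non-coding gene *Sox2ot* on the same strand, which had 0.042 to 0.855 FPKM.

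*Nanog*, on chromosome 6, had 359 and 311 FPKM in WT 2i against 323 and 335 in WT serum, and these groups overlapped. The log2 difference was 0.02 (95% interval −0.38 to 0.42, limma adjusted p = 0.9273). In P53-/- cells *Nanog* had 249 and 261 FPKM in 2i against 329 and 452 in serum, so that both 2i libraries lay below both serum libraries. Here the log2 difference was −0.60 (standard error 0.17, limma adjusted p = 0.01778), 1.51-fold lower in 2i. The P53-/- serum libraries were far apart, and without the higher of them (library 2) the difference was −0.37. The call was also lost without P53-/- 2i library 1 (−0.56), with median-ratio scaling (−0.54) and with quantile normalization (−0.52).

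*Sall4*, on chromosome 2, had 13.0 and 17.5 FPKM in WT 2i against 54.3 and 55.2 in WT serum. Its P53-/- libraries stood at 13.2 and 13.7 in 2i against 56.5 and 55.7 in serum. The cultures were separated by a wide gap in both genotypes. The log2 difference was −1.85 in WT (standard error 0.15, limma adjusted p = 6.575e-05), 3.61-fold lower in 2i, and −2.05 in P53-/- (standard error 0.15, limma adjusted p = 3.899e-05), 4.14-fold lower. Of the 12572 genes tested, 809 fell as far or further in WT and 760 in P53-/-.

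*Utf1*, on chromosome 7, fell further. It had 7.30 and 5.205 FPKM in WT 2i against 53.5 and 51.8 in WT serum. Its P53-/- libraries stood at 6.02 and 4.81 in 2i against 46.3 and 55.55 in serum. Every 2i library lay below every serum library. The values in 2i rested on an estimated 31 to 70 fragments each, up to the common factor of the depth estimate. The log2 difference was −3.07 in WT (standard error 0.19, limma adjusted p = 2.963e-05), 8.41-fold lower in 2i, and −3.21 in P53-/- (standard error 0.19, limma adjusted p = 2.228e-05), 9.27-fold lower. In WT 220 genes fell as far or further, and in P53-/- 240.

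*Lin28a*, on chromosome 4, had the largest difference of the 6 in both genotypes in the main fit. With the length-centred values given below, *Utf1* fell further in WT. It had 10.3 and 8.80 FPKM in WT 2i against 102 and 93.65 in WT serum. Its P53-/- libraries stood at 6.67 and 3.76 in 2i against 106 and 87.0 in serum. The libraries of the cultures lay about an order of magnitude apart. The log2 difference was −3.35 in WT (standard error 0.25, limma adjusted p = 4.984e-05), 10.2-fold lower in 2i, and −4.23 in P53-/- (standard error 0.25, limma adjusted p = 2.052e-05), 18.8-fold lower. As few as 173 genes in WT and 109 in P53-/- fell as far or further. Among the 12572 genes ranked by mean FPKM, *Lin28a* stood at place 950 in WT serum, 5816 in WT 2i and 7622 in P53-/- 2i. The calls of *Sall4*, *Utf1* and *Lin28a* between cultures were kept in all 19 alternatives in both genotypes.

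The culture difference also moved with transcript length over the whole table. When genes were split into deciles by their longest annotated transcript, the median log2 difference between 2i and serum in WT was 0.27 in the shortest decile, 0.45 in the next and −0.78 in the longest. In P53-/- the same medians were 0.20, 0.47 and −0.85. *Pou5f1* (1362 bases) and *Utf1* (1227 bases) belong to decile 2, *Sox2* (2057 bases) and *Nanog* (2211 bases) to decile 3, *Lin28a* (3505 bases) to decile 6 and *Sall4* (5073 bases) to decile 8. *Utf1* thus fell among short genes that mostly rose, while the rise of *Pou5f1* in WT stood beside a median of 0.45 in its decile.

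With the values of each library centred on the median of the genes of the same length decile, an alternative chosen after seeing the data, the call of *Pou5f1* in WT was lost, with the values given above. *Nanog* in WT turned to −0.39 (limma adjusted p = 0.06072), under the fold threshold. *Sox2* fell more, to −1.01 in WT (limma adjusted p = 0.005949) and −1.04 in P53-/- (limma adjusted p = 0.004935). *Nanog* in P53-/- was at −1.01 (limma adjusted p = 0.0007538), and *Sall4*, *Utf1* and *Lin28a* stayed at −1.59, −3.61 and −3.35 in WT, each called by limma. The members called in WT were then 0 higher and 4 lower, against 26.7% and 26.3% of all genes, and in P53-/- 0 higher and 5 lower, against 27.1% and 27.6%. The rise of *Pou5f1* in 2i is therefore given here as measured in FPKM, and what the length trend reflects was not tested.

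**Figure D2:**
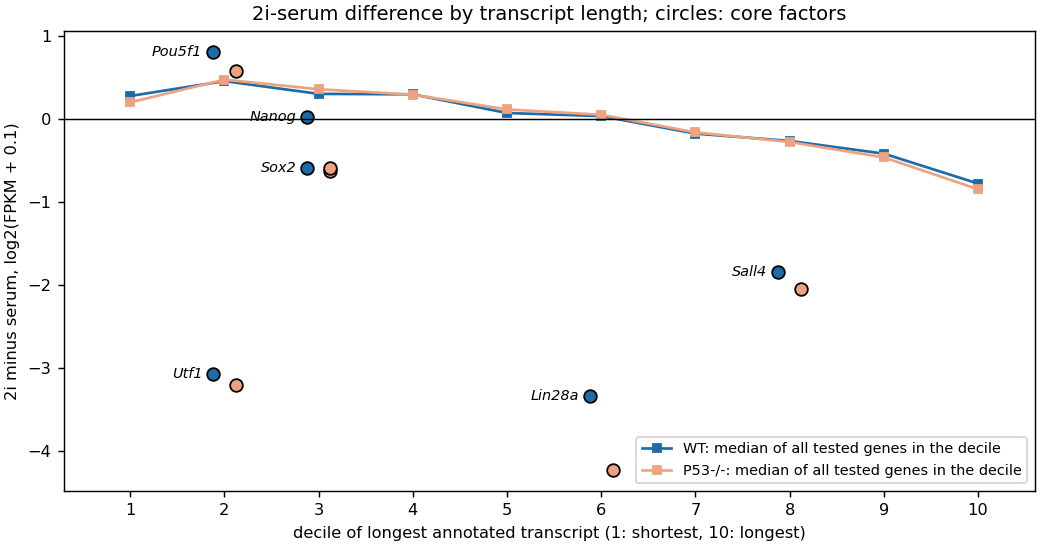
Difference between 2i and serum on the log2(FPKM + 0.1) scale by decile of longest annotated transcript. Lines join the medians of all tested genes in WT and P53-/-, which run from 0.27 and 0.20 in the shortest decile to −0.78 and −0.85 in the longest, and circles mark the core factors in WT (blue) and P53-/- (orange). *Utf1*, *Lin28a* and *Sall4* lie far under the medians of their deciles.

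Within a library, the ratio to *Pou5f1* does not depend on library scaling by a common factor. *Sox2* was at 40.15% of the *Pou5f1* FPKM in WT serum and 41.2% in P53-/- serum. In 2i it was at 11.2% and 20.7% in the WT libraries and at 15.9% and 20.05% in the P53-/- libraries. *Nanog* went from a mean of 62.4% in WT serum to 36.3% in WT 2i, and from 76.0% to 33.7% in P53-/-. The libraries of the 2 cultures did not overlap in either ratio.

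The other members fell further against *Pou5f1*. *Sall4* went from a mean of 10.4% to 1.68% in WT and from 11.05% to 1.78% in P53-/-. *Utf1* went from 9.98% to 0.674% in WT and from 9.97% to 0.712% in P53-/-. *Lin28a* went from 18.6% to 1.04% in WT and from 19.1% to 0.682% in P53-/-. *Utf1* stood at nearly the same mean share of *Pou5f1* in both genotypes within each culture. The summed FPKM of the 6 was 1166 to 1481 in 2i and 1210 to 1419 in serum, and of this sum *Pou5f1* made up 62.3% to 66.3% in 2i and 38.6% to 41.5% in serum.

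**Figure D3:**
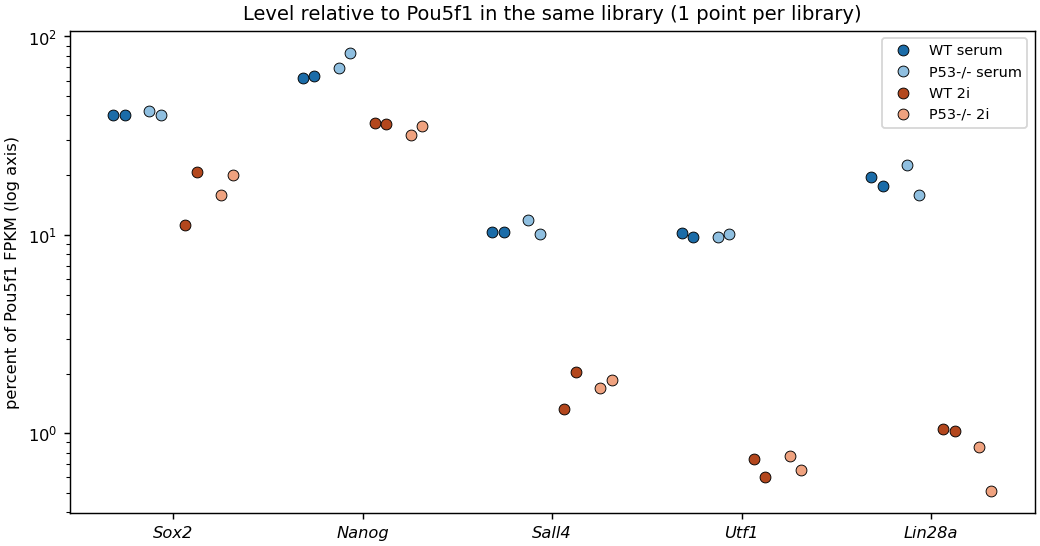
FPKM of 5 core factors as a percent of the *Pou5f1* FPKM in the same library, on a log axis, with 1 point per library. For each gene the 4 libraries from 2i lie under the 4 from serum, with *Utf1* and *Lin28a* near or under 1% in 2i.

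Loss of P53 in 2i was accompanied by lower *Lin28a*, and the other core factors did not pass the test. *Lin28a* had 6.67 and 3.76 FPKM in P53-/- 2i against 10.3 and 8.80 in WT 2i, with no overlap. Its log2 difference was −0.91 (standard error 0.25, 95% interval −1.49 to −0.33, limma adjusted p = 0.07077), 1.88-fold lower in P53-/-. It was the 1 member of 6 called, where 10.3% of all genes tested were called and 5.97% were called lower, and 1 of 6 is too few to set against these shares. The call was lost in 11 of 19 alternatives, with limma adjusted p from 0.02972 to 0.2555, and was kept without P53-/- 2i library 1 but not without any other library. The difference was −0.51 without P53-/- 2i library 2 (limma adjusted p = 0.2349), −0.80 without WT 2i library 1 (limma adjusted p = 0.2095) and −1.02 without WT 2i library 2 (limma adjusted p = 0.1244). Without each serum library it was still −0.91, with limma adjusted p from 0.1043 to 0.1557. The summed FPKM of markers was also lower in P53-/- 2i than in WT 2i for 3 of the 5 other cell types. It was 58.1 to 73.3 against 87.5 to 110 for primitive endoderm, mostly from *Sparc*, and 55.3 to 56.2 against 65.9 to 122 for trophoblast, mostly from *Krt8*. For neural cells it was 22.5 to 27.7 against 31.5 to 34.2, mostly from *Tubb3*, while the mesoderm and fibroblast sums overlapped. Of the markers tested, limma called 0 of 2 for primitive endoderm, 0 of 5 for trophoblast and 1 of 3 for neural cells, *Tubb3*, called lower. Of all genes, 5.97% were called lower. *Sparc* (log2 −0.58, limma adjusted p = 0.07273) was under the fold threshold, and *Krt8* had −0.76 (limma adjusted p = 0.3313). *Nes* of the neural list had 5.60 and 5.19 FPKM in P53-/- 2i against 3.68 and 3.42 in WT 2i, the opposite direction (log2 0.59, limma adjusted p = 0.1104). The part of these markers in the differences between genotypes was not tested.

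*Pou5f1* and *Nanog* were also lower in every P53-/- 2i library than in every WT 2i library, so that 3 of 6 members were separated in this direction, as were 24.7% of all genes. *Pou5f1* had 782 and 735 FPKM against 982 and 860 in WT, a log2 difference of −0.28 (95% interval −0.63 to 0.08, limma adjusted p = 0.3087). *Nanog* had 249 and 261 FPKM against 359 and 311, a log2 difference of −0.39 (95% interval −0.79 to 0.01, limma adjusted p = 0.2125). *Sox2* at −0.05 (95% interval −0.55 to 0.46), *Sall4* at −0.16 (−0.51 to 0.19) and *Utf1* at −0.19 (−0.64 to 0.26) had overlapping libraries, with limma adjusted p from 0.5473 to 0.9308.

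In serum, 0 of the 6 members were called between P53-/- and WT by limma, where 1.02% of all genes tested were called, and 0 members had an unadjusted p under 0.05, as 1422 genes did. The difference of *Trp53* itself was not called in serum either. *Nanog* had the largest difference, 0.23 (95% interval −0.17 to 0.63, limma adjusted p = 0.6571), from libraries at 329 and 452 FPKM in P53-/- against 323 and 335 in WT. The other 5 lay between −0.05 and 0.04 on the log2 scale, with 95% intervals no wider than −0.60 to 0.55. The *Sall4* libraries did not overlap, at 56.5 and 55.7 against 54.3 and 55.2 FPKM, a separation in this direction that 25.7% of all genes showed, and its log2 difference was 0.04.

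Whether the effect of P53 loss differed between 2i and serum was tested as an interaction in the same fit, and 0 of 6 members were called by limma, where 0.207% of all genes were. At an unadjusted p under 0.05 there were 2 members and 1651 genes. The members were *Nanog*, with a difference of effects of −0.62 (95% interval −1.18 to −0.05, limma adjusted p = 0.3472), and *Lin28a*, with −0.88 (95% interval −1.70 to −0.07, limma adjusted p = 0.3484). *Lin28a* was thus called in 2i and not in serum, but the test of that difference was not passed. The same test covers the larger culture difference of *Lin28a* and *Nanog* in P53-/- than in WT. The other 4 members had differences of effects from −0.23 to −0.03.

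**Figure D4:**
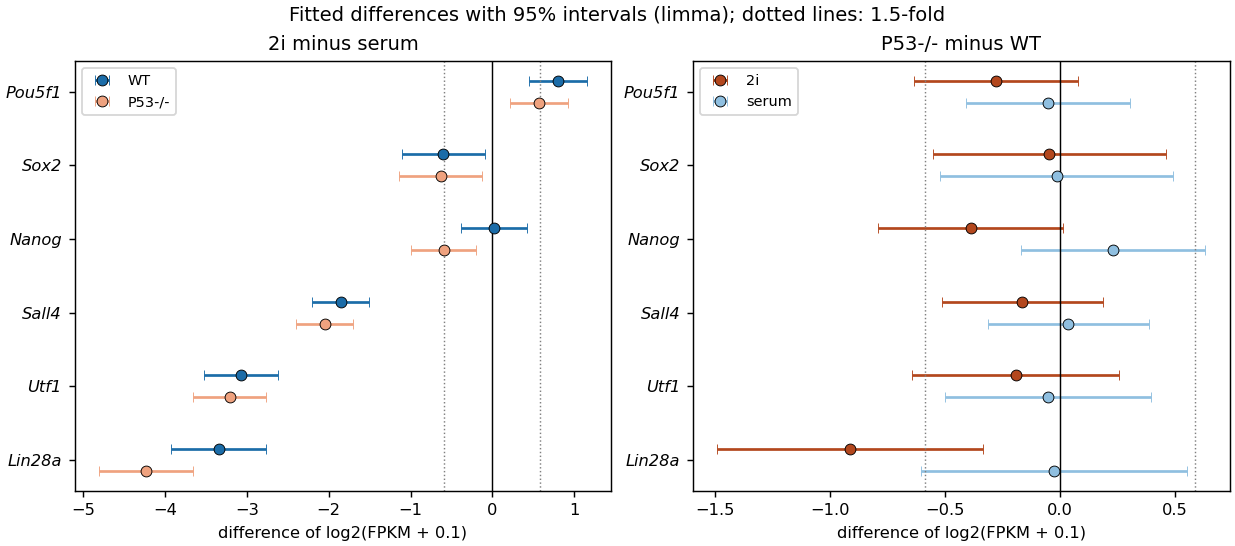
Fitted differences of the 6 core factors with 95% intervals from limma, on the log2(FPKM + 0.1) scale: 2i minus serum in WT and P53-/- (left) and P53-/- minus WT in 2i and serum (right), with dotted lines at 1.5-fold. On the left *Lin28a*, *Utf1* and *Sall4* lie between −4.23 and −1.85, and on the right only the interval of *Lin28a* in 2i, at −0.91, lies wholly under 0.

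A list of 35 partners and targets of the core factors was measured beside them. In WT, 9 were called higher and 13 lower in 2i than in serum, where 27.2% and 28.6% of all genes were called, with a median log2 difference of −0.40 against −0.02 over all genes. In P53-/-, 10 were called higher and 16 lower, where 28% and 30.1% of all genes were called. Among the larger falls in WT were those of *Dnmt3l* (−2.94, limma adjusted p = 0.008192) and *L1td1* (−2.61, limma adjusted p = 1.262e-05), an RNA-binding partner of LIN28A. *L1td1* had 59.4 and 60.0 FPKM in WT 2i against 380 and 352 in WT serum. The size of the fall of *Dnmt3l*, a cofactor of the de novo DNA methyltransferases, was uncertain in WT. Its WT 2i libraries were unequal, at 20.2 and 2.99 FPKM, and both were below the 60.9 and 60.6 of WT serum. In P53-/- it had 3.95 and 2.76 FPKM in 2i against 58.2 and 54.3 in serum (−4.05, limma adjusted p = 0.00167).

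The largest rise in the list was that of *Dppa3*, from 1.44 and 3.66 FPKM in WT serum to 28.1 and 31.5 in WT 2i (log2 difference 3.63, limma adjusted p = 0.000121). *Fbxo15* (2.22 in WT, limma adjusted p = 8.429e-05), *Spp1* (1.79, limma adjusted p = 0.001721) and *Fgf4* (0.98, limma adjusted p = 0.001614) were higher in 2i, as *Pou5f1* was. *Zfp281*, a zinc finger factor that binds NANOG (−2.15, limma adjusted p = 3.98e-05), and *Jarid2*, a Polycomb cofactor (−2.13, limma adjusted p = 1.872e-05), were lower, as *Sall4*, *Utf1* and *Lin28a* were. Of the naive factors, *Prdm14* rose from 13.55 and 11.2 FPKM in WT serum to 35.4 and 32.45 in WT 2i (1.45, limma adjusted p = 0.000115), while *Esrrb* had 70.6 and 89.96 in WT 2i against 115 and 110.3 in WT serum (−0.50, limma adjusted p = 0.01677, under the fold threshold).

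Between P53-/- and WT in 2i, 2 of the 35 were called higher and 3 lower, against 4.36% and 5.97% of all genes. In serum and for the interaction limma called 0, against 1.02% and 0.207% of all genes. At an unadjusted p under 0.05 were 13 of the 35 in 2i, 5 in serum and 8 for the interaction. Of the 12572 genes, 3173, 1422 and 1651 were. With length-centred values the interaction was called for *Dppa3* (2.997, limma adjusted p = 0.02736) and *Klf4* (−1.18, limma adjusted p = 0.07774). In that setting 0.152% of all genes were called higher and 0.2% lower. *Dppa3* (Stella), a maternal factor of early embryos and germ cells, had 397 and 446 FPKM in P53-/- 2i against 28.1 and 31.5 in WT 2i, a 14.1-fold difference (log2 3.82, standard error 0.35, limma adjusted p = 0.001575). *Lefty1*, a Nodal antagonist, had 12.3 and 6.38 FPKM against 1.45 and 2.59 (log2 2.13, limma adjusted p = 0.01909). *Nodal* itself had 18.8 and 17.2 FPKM against 69 and 48.3 (log2 −1.68, limma adjusted p = 0.004114). *Klf4* (−0.96, limma adjusted p = 0.007817) and *Tbx3* (−0.66, limma adjusted p = 0.03403) were the other genes called lower. The median log2 difference was −0.16 over the 35 genes and −0.23 over the 6 core factors, against 0.02 over all genes.

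**Figure D5:**
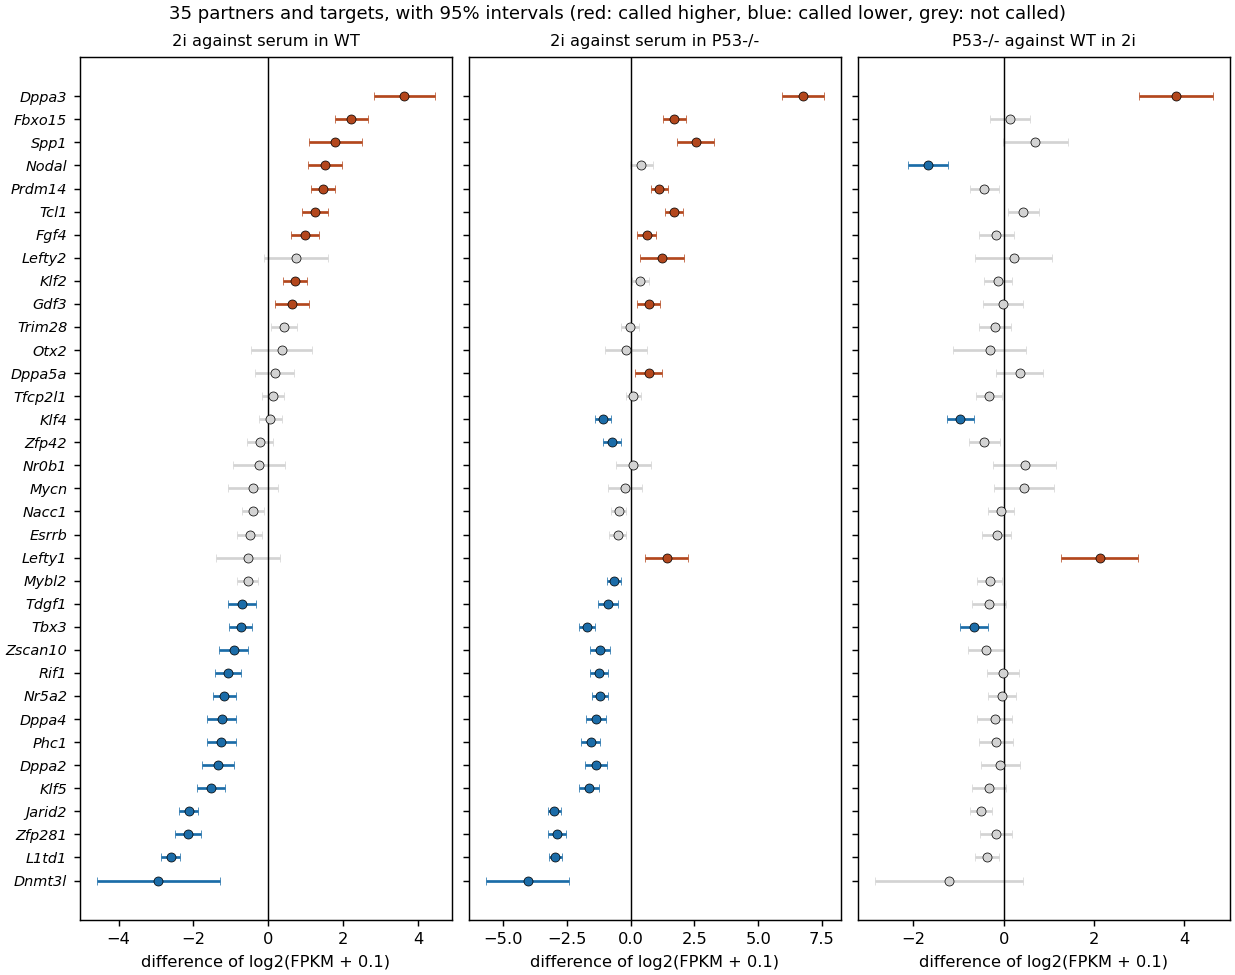
Fitted log2 differences with 95% intervals of 35 partners and targets of the core factors, sorted by the difference between 2i and serum in WT, for 2i against serum in WT, 2i against serum in P53-/- and P53-/- against WT in 2i. Called genes are red (higher) or blue (lower), 9 and 13 in the first panel, 10 and 16 in the second, and 2 and 3 in the third.

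Of 14 paralogs of the members, 12 were expressed highly enough to be tested. In 2i against serum, 4 were called higher and 5 lower in WT, where 27.2% and 28.6% of all genes were called, and 2 higher and 5 lower in P53-/-, where 28% and 30.1% were called. *Lin28b*, the paralog of *Lin28a*, fell by nearly the same factor as *Lin28a* in WT, from 13.7 and 16.85 FPKM in serum to 1.64 and 1.24 in 2i (log2 −3.32, standard error 0.19, limma adjusted p = 2.629e-05). *Sall1* fell, as *Sall4* did, with a log2 difference of −1.68 in WT (limma adjusted p = 0.0001895), and *Pou2f1*, which encodes OCT1, was lower in 2i (−2.20, limma adjusted p = 6.431e-05) where *Pou5f1* was higher. *Sox21* rose (2.05, limma adjusted p = 0.006356) from 0.774 to 3.64 FPKM, and *Sox3* fell (−2.95, limma adjusted p = 0.001815) from 1.73 to 0.140 FPKM, both at low mean levels.

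The paralogs of *Lin28a* and *Pou5f1* gave the 2 calls of this list between P53-/- and WT in 2i, 1 higher and 1 lower, where 4.36% and 5.97% of all genes were called. *Lin28b* was higher in P53-/- 2i, at 2.795 and 2.42 FPKM against 1.64 and 1.24 in WT (log2 0.82, standard error 0.19, limma adjusted p = 0.04653), where *Lin28a* was lower. *Pou2f3* had 1.65 and 0.587 FPKM against 3.19 and 2.98 (log2 −1.54, limma adjusted p = 0.07076). In serum 0 of the 12 were called by limma, against 1.02% of all genes, and 0 had an unadjusted p under 0.05.

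The LIN28 and let-7 axis comprised 16 genes, among them *Lin28b*, let-7 processing enzymes and let-7 targets. In 2i against serum 1 was called higher and 11 lower in WT, where 27.2% and 28.6% of all genes were called, with a median log2 difference of −0.999 against −0.02 over all genes. In P53-/- the counts were likewise 1 and 11, where 28% and 30.1% of all genes were called, with a median of −0.83 against −0.03. The gene called higher was *Dis3l2*, the exonuclease that degrades uridylated pre-let-7, at 12.6 and 14.96 FPKM in WT 2i against 6.51 and 6.07 in WT serum (log2 1.11, limma adjusted p = 0.0006697). *Tut4*, which uridylates pre-let-7 with LIN28A, was lower (−1.77, limma adjusted p = 8.158e-05), as were the microRNA processing genes *Dicer1* (−1.92, limma adjusted p = 7.683e-05) and *Drosha* (−0.91, limma adjusted p = 0.0007778). Among the targets of let-7, some were called lower, *Hmga2* with a log2 difference of −1.68 (limma adjusted p = 0.003602), *Trim71* with −1.32 (limma adjusted p = 0.0003112) and *Igf2bp1* with −1.18 (limma adjusted p = 0.0008208). Others were not called, *Igf2bp2* with −0.37 (limma adjusted p = 0.362), *Mycn* with −0.40 (limma adjusted p = 0.2589) and *Ccnd1* with −0.25 (limma adjusted p = 0.3169), and *Igf2bp3* had 0.50 (limma adjusted p = 0.01116), under the fold threshold. *Ccnd2* had the largest fall, from 8.966 and 8.915 FPKM in WT serum to 0.294 and 0.290 in WT 2i (−4.53, limma adjusted p = 2.855e-05). Mature let-7 was not measured in these libraries. With length-centred values the counts were 2 higher and 10 lower in WT, where 26.7% and 26.3% of all genes were called, and 2 and 8 in P53-/-, where 27.1% and 27.6% were called.

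Between P53-/- and WT in 2i, 1 of the 16 genes, *Lin28b*, was called higher and 1, *Ccnd2*, was called lower (−1.28, limma adjusted p = 0.03813), the latter at 0.0348 and 0.0929 FPKM against 0.294 and 0.290, levels near the pseudocount of 0.1. Of all genes, 4.36% were called higher and 5.97% lower. In serum 0 of the 16 were called by limma, against 1.02% of all genes, and 0 had an unadjusted p under 0.05.

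Across the 8 libraries, *Sox2*, *Sall4*, *Utf1* and *Lin28a* varied together. *Utf1* and *Lin28a* had a Pearson r of 0.99, *Sall4* and *Utf1* 0.98, and *Sall4* and *Lin28a* 0.98. *Sox2* had an r of 0.90 with *Sall4*, 0.81 with *Utf1* and 0.80 with *Lin28a*. *Pou5f1* ran opposite to them, with an r of −0.93 with *Sall4*, −0.90 with *Utf1* and −0.84 with *Sox2*, and *Nanog* had an r of −0.32 with *Pou5f1*, 0.47 with *Sox2* and 0.64 with *Lin28a*. The 8 points come from 2 cultures and 2 genotypes and share their libraries and depth, so these values mostly restate the split between the cultures. Among 7775 protein-coding genes whose mean reached 5 FPKM, the genes most like *Pou5f1* were *Fam216a* (r = 0.994), *Rplp2* (0.991) and *Esrra* (0.991). Those most like *Sox2* were *Nudt5* (0.984), *Kifap3* (0.983) and *Agpat5* (0.980), each of which was also lower in WT 2i library 1 than in library 2. The nearest to *Nanog* were *Sh3gl3* (0.950), *1600012H06Rik* (0.941) and *Sepsecs* (0.939). For *Sall4* they were *Enah* (0.999), *Fermt2* (0.999) and *Terf1* (0.998), for *Utf1* *Xpo6*, *Gxylt1* and *Grb7* (0.997 each), and for *Lin28a* *Ncor1* (0.998), *Ube4b* (0.997) and *Rraga* (0.997).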

How the data were processed

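The data are FPKM values that the authors deposited as 1 table, in which lines are gene symbols and columns are libraries. The submitters' processing notes name STAR, Cufflinks, DESeq2 and the genome build mm9, without roles or versions. The annotation and the strand setting of the counting are not given in the sources used here, so reads of *Gm19553*, *Gm14261* and *Gm13061*, which overlap *Pou5f1*, *Sall4* and *Lin28a* on the other strand, cannot be told apart from theirs. Total RNA was depleted of ribosomal RNA, primed at random and made into stranded libraries.

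Columns carry genotype and culture only. Libraries were numbered by column order, and no column was matched to a labelled replicate. The 12572 genes whose mean reached 0.5 FPKM were tested as log2(FPKM + 0.1) with limma 3.58.1 (R 4.3.3), in 1 fit of the 4 groups with an eBayes trend and Benjamini-Hochberg adjustment over all genes tested. Fold changes are on the log2(FPKM + 0.1) scale, which understates the changes of low genes. The study's count models could not be run on FPKM. With 2 libraries a group the smallest two-sided p of an exact permutation test is 0.3333, so none is given for single genes. The fit was also run on simulated data, and the outcome is not given here. FPKM values give no counting interval. Depth was estimated from the steps of low values, of which 65.3% to 75.2% lay within 0.15 of a whole number of fragments.

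Of the 24881 symbols, 24425 matched GENCODE M21 (GRCm38), used for chromosomes, transcript lengths and gene types. Promoter windows are from RefSeq and were searched with Python 3.11.15 and pandas 2.3.3. Figures were drawn with matplotlib 3.10.9. The members, the 10 gene lists (core members, network partners and targets, family paralogs, the LIN28 and let-7 axis, 5 lists of other cell types and housekeeping genes) and the tests were chosen with earlier results of these data known. A gene of the network list is not reported here. Named genes are the members, *Trp53*, called genes of each list (at most 6 per comparison, by size of change) and the 3 genes most like each member, and others named beside them were chosen after their values were seen. The alternatives were eBayes without trend, a threshold of 0.05 on the adjusted p, quantile normalization, median-ratio scaling, pseudocounts of 0.01 and 1, no filter, a filter at 1 FPKM, no small RNA genes, fits of the compared groups alone, and leaving out each library. Centring on length deciles was added after seeing the data.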

Additional observations from a re-analysis of the deposited data

Results flagged for a closer look

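For 11 genes of the lists, both P53-/- libraries lay on one side of both WT libraries in 2i and on the other side in serum, as they did for 956 of the 12572 genes tested (7.6%), and 0 of the 6 core factors were among them. The values that follow are the log2 effect of P53 loss in 2i minus that in serum, and the limma interaction test called 0 of the 11, of which 9 had an unadjusted p under 0.05. Genes separated in this way are chosen for a difference in the effect, so small p-values are favoured, and 614 of the 956 (64.2%) had an unadjusted p under 0.05, with 9 of the 956 called. With length-centred values the interaction was called for 2 of the 11, *Klf4* (−1.18, limma adjusted p = 0.07774) and *Tubb3* (−1.33, limma adjusted p = 0.07585). In that setting 0.152% of all genes tested were called higher and 0.2% lower. Lower in P53-/- 2i and higher in P53-/- serum than in WT were *Klf4* (−1.13, limma adjusted p = 0.1018), *Tbx3* (−0.96, limma adjusted p = 0.1611), *Trim28* (−0.45, limma adjusted p = 0.424) and *Jarid2* (−0.88, limma adjusted p = 0.1146) of the network list. *Ccnd2* had −1.53 (limma adjusted p = 0.1994). The marker genes *Sparc* (−0.70, limma adjusted p = 0.2701) and *Tubb3* (−1.33, limma adjusted p = 0.1014) and the housekeeping gene *Gusb* (−0.72, limma adjusted p = 0.2715) went the same way. In the opposite sense were *Dppa5a* (0.54, limma adjusted p = 0.5123), *Hmga2* (1.25, limma adjusted p = 0.332) and *Pgk1* (0.81, limma adjusted p = 0.2423).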

How the results depend on the processing

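The number of core factors called between P53-/- and WT in 2i was 1 and became 0 with no filter, in a fit of the compared groups only, with eBayes without trend and at an adjusted p under 0.05, and ran from 0 to 1 with each library left out. Between 2i and serum in P53-/- it was 5 and ran from 3 (without P53-/- 2i library 1) to 6. Between 2i and serum in WT it was 4 or 5 under the alternatives, and it was 0 under all of them for P53 loss in serum and for the interaction.

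Differences that changed sign were small. *Sall4* in serum was −0.013 with quantile normalization, and *Nanog* between cultures in WT was −0.39 with length-centred values. Leaving out single libraries, log2 differences between P53-/- and WT in 2i ran from −0.40 to 0.30 for *Sox2*, −0.38 to 0.052 for *Sall4* and −0.43 to 0.048 for *Utf1*. In serum they ran from −0.16 to 0.055 for *Pou5f1*, −0.092 to 0.061 for *Sox2*, −0.18 to 0.078 for *Utf1* and −0.17 to 0.11 for *Lin28a*. For the interaction they ran from −0.38 to 0.32 for *Sox2*, −0.41 to 0.016 for *Sall4* and −0.38 to 0.10 for *Utf1*, and between cultures in WT from −0.083 to 0.12 for *Nanog*. The causes were not tested, other than that fewer samples were fitted. Where a library was left out, the lone library of its group was assumed to vary like the other groups.

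No paired analysis was possible because the columns carry no replicate number. Depth limited *Utf1* and *Lin28a* most, which rested on an estimated 31 to 70 and 70 to 283 fragments in the 2i libraries. These numbers hold up to the common factor of the depth estimate.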
